A study of Mus musculus with 9 samples.

Results

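Mitosis and spindle genes are a set of 49 genes that code for the kinases, cyclins, checkpoint proteins, kinetochore subunits, motors, scaffolds and condensins of a dividing cell. The members were picked from the table by gene symbol, with earlier results of these data known. All 49 were found in the table of the series and all 49 passed the minimum level, among 14029 named genes tested. RNA had been sequenced from midbrain tissue of mouse fetuses (strain C57BL/6) at E13.5, with 3 libraries per genotype and 9 in all. The floxed control was Gpr161 f/f, with no Cre. The Cre control was Gpr161 f/+;Wnt1-Cre, which carries 1 floxed allele, 1 unfloxed allele and the Wnt1-Cre transgene. The cKO was Gpr161 f/f;Wnt1-Cre. Every fetus therefore carried at least 1 floxed Gpr161 allele, and both the Cre control and the cKO carried the transgene. Wnt1-Cre acts in the dorsal neural tube, including the midbrain, and in the neural crest, so the dissected tissue can also hold cells in which Gpr161 was left intact. The Cre control differs from the floxed control both by the transgene and by its Gpr161 alleles, and these cannot be told apart here. The cKO differs from the floxed control both by the transgene and by the deletion of Gpr161, which that comparison cannot tell apart either.

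During mitosis, Cdk1 bound to a cyclin drives chromosome condensation and the building of the spindle, and kinetochores tie each chromosome to the microtubules. The spindle checkpoint holds back the anaphase-promoting complex (APC/C), a ubiquitin ligase, until every kinetochore is attached, after which sister chromatids part and the cell is cleaved. In the embryonic midbrain, neural progenitors divide at the ventricular surface while neurons have left the cell cycle, and most transcripts of this kind are known to peak in late G2 and mitosis.

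Many promoters of such genes are known to carry a pair of short elements near the start of transcription, the cell cycle genes homology region (CHR, searched here as TTTGAA or its reverse complement TTCAAA) and the CCAAT box (CCAAT or ATTGG). Promoters from RefSeq on GRCm38.p6, from 250 bases before to 50 bases after the start, were at hand for 40 of the 49 members, as 42 promoters. Only these exact letters were searched, and other forms of the elements were not. The first 8 stretches below were chosen as examples of members with a CHR match close to the start. Those of Birc5 and Ccnb1 follow as examples of the 10 members without such a match. All are written from 5′ to 3′ with matches to both elements in capitals. The first 4 are the 100 bases that end just before the start of transcription.
Cdc20 (chr4:118437344-118437443, minus strand): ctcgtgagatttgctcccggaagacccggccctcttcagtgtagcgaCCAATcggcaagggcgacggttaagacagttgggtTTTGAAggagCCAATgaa
Ube2c (chr2:164769829-164769928, plus strand): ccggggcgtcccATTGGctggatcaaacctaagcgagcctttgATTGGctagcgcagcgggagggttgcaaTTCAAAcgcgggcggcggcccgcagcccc
Cdk1 (chr10:69352913-69353012, minus strand): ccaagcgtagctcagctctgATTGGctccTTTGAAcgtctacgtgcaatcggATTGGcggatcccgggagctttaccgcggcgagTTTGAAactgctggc
Top2a (chr11:99024190-99024289, minus strand): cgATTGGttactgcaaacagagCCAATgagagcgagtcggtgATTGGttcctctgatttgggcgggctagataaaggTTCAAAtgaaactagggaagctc
In the next 4 members, the CHR lies just after the start, and 30 bases around it are shown.
Aurka (chr2:172370521-172370550, minus strand): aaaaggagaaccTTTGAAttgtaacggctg
Plk1 (chr7:122159453-122159482, plus strand): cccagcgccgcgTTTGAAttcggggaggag
Ccnb2 (chr9:70421525-70421554, minus strand): ggtaTTTGAAtcgcggaccgggcggtggac
Cenpa (chr5:30666890-30666919, plus strand): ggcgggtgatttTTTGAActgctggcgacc
The 100 bases before the start in Birc5 and Ccnb1 hold no match to TTTGAA or TTCAAA.
Birc5 (chr11:117849137-117849236, plus strand): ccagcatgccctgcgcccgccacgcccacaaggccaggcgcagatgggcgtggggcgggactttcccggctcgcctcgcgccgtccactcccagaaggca
Ccnb1 (chr13:100786487-100786586, minus strand): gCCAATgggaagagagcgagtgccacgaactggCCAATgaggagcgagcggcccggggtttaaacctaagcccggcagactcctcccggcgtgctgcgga
The upstream stretch of Cdc20 places the CHR between a pair of CCAAT boxes, and that of Cdk1 holds 2 CHRs and 2 CCAAT boxes. The members with no match to TTTGAA in the window searched were Birc5, Bub1, Ccnb1, Cdc25b, Cenpe, Kif18a, Mad2l1, Nuf2, Nusap1 and Pttg1, and Birc5, Kif18a, Mad2l1, Nuf2, Nusap1 and Pttg1 had none to CCAAT either. Ccnb1 holds 2 CCAAT boxes. The promoters of Cdc25c, Spc24, Smc4, Tpx2, Dlgap5, Ccna2, Aurkb, Kif20a and Incenp are not shown.

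Searched on both strands, TTTGAA was found in 76.2% of the 42 member promoters and in 17.9% of all 32851 promoters of that length. From 100 bases before to 50 bases after the start, the shares were 71.4% and 8.01%. CCAAT was found in 76.2% of the member promoters against 37.4% of all, at least 2 copies of it in 21 of the 42 against 11.7%, and a CHR near the start together with a CCAAT box in 64.3% against 3.17%. In Cdca8, a match to each element overlaps the other. The CHR matches of the members were most frequent in the first 25 bases after the start, where 31.0% of the member promoters and 1.31% of all promoters had one. These are matches of letters, and binding of a factor was not measured.

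**Figure D1:**
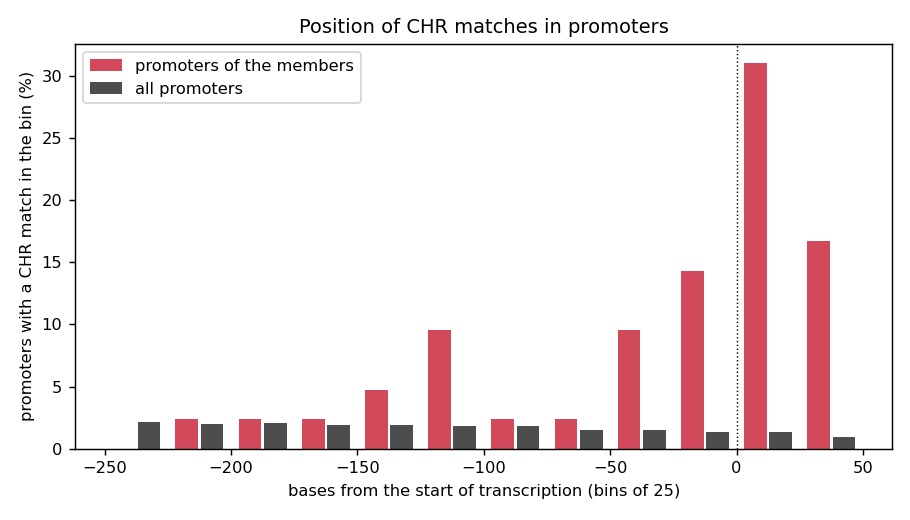
Share of promoters with a CHR match (percent, y axis) in bins of 25 bases along the promoter (x axis, bases from the start of transcription, marked by the dotted line), for the 42 promoters of 40 members (red) and for all 32851 promoters (grey). The red bars are highest from 0 to 24 bases after the start, at 31.0%, where the grey bar is at 1.31%.

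The values in the table are on a log2 scale, were normalized between libraries by the authors and shrink toward each other at low expression. The means of the members in the floxed control ran from 8.49 (Cdc25c) to 13.00 (Top2a), well above the minimum of 1 cpm, which lies between 4.73 and 4.78 on this scale. The table gives no read counts, so the depth of each library is unknown and no interval from counts can be given. Per kilobase of the longest coding transcript, the mean log2 level in the floxed control was highest for Top2a at 10.61, followed by Ccnb1 at 10.18, Cenpa at 10.15 and Smc4 at 10.08, and lowest for Espl1 at 6.65. Gpr161 itself was listed at 11.80, 11.74 and 11.78 in the floxed controls, 11.77, 11.91 and 11.96 in the Cre controls and 11.74, 11.95 and 11.94 in the cKO. Its mean in the libraries labelled cKO lay above that of the floxed control by 0.11 (95% confidence interval -0.039 to 0.25, adjusted p = 0.223 by limma). The table gives 1 value per gene and cannot show a deleted exon, so the genotypes rest on the labels, and cKO means below the libraries so labelled. Otx2, En1, En2, Pax2, Pax3, Pax7 and Lmx1b, markers of the midbrain, were all present, with mean log2 values from 7.35 (Pax2) to 12.33 (En2), and their differences between the genotypes are given with those of the other markers.

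All 49 members were higher in the cKO than in the floxed control. Each passed an adjusted p of 0.05 (limma, two-sided, Benjamini-Hochberg over the 14029 genes), and the share of all genes called higher in this comparison was 19.5%. The median log2 fold change of the members was 0.48, a fold of 1.40, beside a median of 0.011 over all genes tested. The fold changes ran from 0.15 for Pttg1 to 0.64 for Birc5 on the log2 scale, with standard errors from 0.0444 to 0.11. In all 49 members the 3 cKO libraries lay above the 3 floxed controls with no overlap, which held for 29.9% of all genes. In bulk tissue, a larger share of dividing cells and more of these transcripts per dividing cell cannot be told apart.

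Against the Cre control, the mean differences of the members were smaller. All 49 members had a higher mean in the cKO, with a median log2 fold change of 0.25 (fold 1.19) beside 0.012 over all genes, and 24 of the 49 were called higher by limma, against 4.86% of all genes. This count ran from 8 to 42 when 1 library at a time was left out, and it was 8 with only the 6 libraries compared and 0 with the erythroid genes as a covariate. For these and the other alternative fits, the share of all genes called is not given. A lower count can therefore also reflect fewer calls over all genes. At an unadjusted p under 0.05, 43 of 49 members were higher, against 15.4% of all genes. The 3 cKO libraries lay above the 3 Cre controls with no overlap in 34 members, against 17.8% of all genes, and the same 34 lay above all 6 control libraries, against 14.7%. The comparison with each control uses the same cKO libraries, so the 2 sets of values are not independent.

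Between the controls, limma called 0 of the 49 members, and 0.0499% of all genes were called higher in the Cre control. The mean of the Cre control was nevertheless the higher one for all 49 members, with a median log2 difference of 0.23, although the differences of Pttg1, Espl1 and Kif20b turned negative in some alternative fits. Of the 49, 42 were higher at an unadjusted p under 0.05, against 8.77% of all genes. In 40 members the Cre control libraries lay above the floxed controls with no overlap, against 10.7% of all genes. The means thus rose from the floxed control over the Cre control to the cKO in 49 of 49 members and in 33.9% of all genes. In 28 members all 9 libraries followed that order with no overlap, against 4.38% of all genes. The mean of the Cre control lay at a median of 47.1% of the way from the floxed control to the cKO, from 7.57% for Pttg1 to 66.2% for Spc24.

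**Figure D2:**
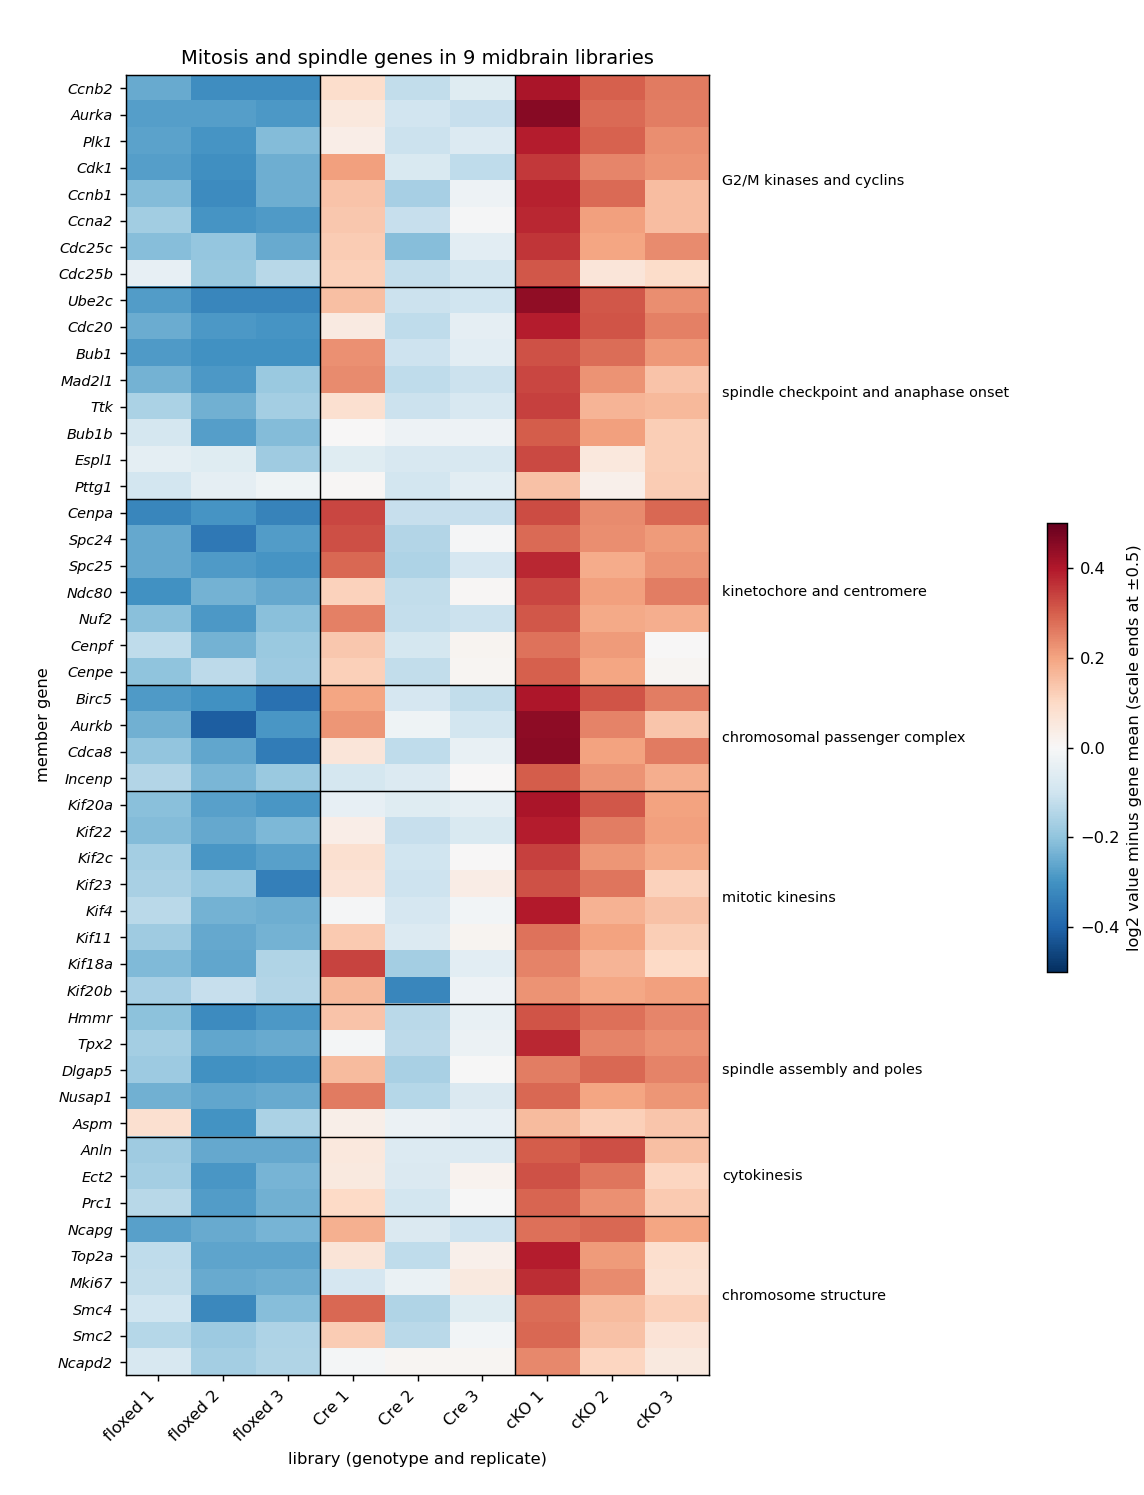
Log2 value of each of the 49 members (rows, grouped by role) in each of the 9 libraries (columns), as the difference from the gene's mean over all libraries, with the colour scale ending at ±0.5. The floxed controls are the lowest for nearly every member and the cKO the highest, with the Cre controls between them and Cre control replicate 1 nearest to the cKO.

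A member was taken as a DEG where its adjusted p lay below 0.05 and it differed by more than 1.5-fold (0.585 on the log2 scale), limits taken from the study's methods. Of the 49 members, 7 were DEGs against the floxed control, namely Birc5, Ube2c, Ccnb2, Aurka, Cdc20, Cenpa and Aurkb, and 1.34% of all genes were DEGs higher in the cKO. Their number was 2 without cKO replicate 1, 12 without cKO replicate 3, 2 after a correction for transcript length and GC content and 25 with the mesenchyme genes as a covariate. Aurkb lay just over the limit at 0.59, and Plk1, Kif20a and Cdca8 just under it at 0.57. Against the Cre control, limma gave 0 DEGs among the members and 0.335% among all genes. Of the 7 DEGs, 5 were also called against the Cre control, without the fold limit, and Cenpa and Aurkb were not. On GRCm38, Birc5 lies at chr11:117849251-117855743, Ube2c at chr2:164769898-164778822, Ccnb2 at chr9:70407692-70421547, Aurka at chr2:172356190-172370535 and Cdc20 at chr4:118432901-118437352.

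The 8 kinases, cyclins and phosphatases of the G2/M transition were all called against the floxed control (median log2 fold change 0.54), and 6 were called against the Cre control (median 0.30). Cdk1, the kinase that drives entry into mitosis, had log2 values of 10.73, 10.70 and 10.76 in the floxed controls, 11.21, 10.93 and 10.88 in the Cre controls and 11.36, 11.25 and 11.23 in the cKO. All 9 of its libraries followed the order of the genotypes, although Cre control replicate 1 lay only just below the lowest cKO library. By limma, the cKO exceeded the floxed control by 0.55 (SE 0.076, adjusted p = 0.000887) and the Cre control by 0.27 (SE 0.076, adjusted p = 0.0496). Ccna2, the cyclin that pairs with Cdk1 before the nuclear envelope breaks down, stood at 11.64, 11.52 and 11.53 in the floxed controls, 11.95, 11.70 and 11.81 in the Cre controls and 12.19, 12.02 and 11.97 in the cKO. Ccnb1, the main mitotic cyclin, stood at 11.54, 11.44 and 11.51 in the floxed controls, 11.90, 11.59 and 11.73 in the Cre controls and 12.14, 12.04 and 11.91 in the cKO. Ccnb2, its close relative, stood at 10.27, 10.21 and 10.21 in the floxed controls, 10.61, 10.40 and 10.46 in the Cre controls and 10.93, 10.82 and 10.78 in the cKO. The 3 cyclins had no overlap between the genotypes, and their log2 fold changes against the floxed control were 0.50, 0.53 and 0.61. Against the Cre control Ccnb1 (adjusted p = 0.0459) and Ccnb2 (adjusted p = 0.0121) passed and Ccna2 (adjusted p = 0.0619) did not.

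Plk1, the Polo kinase that acts from centrosome maturation to cytokinesis, had values of 10.11, 10.08 and 10.16 in the floxed controls, 10.41, 10.27 and 10.31 in the Cre controls and 10.77, 10.67 and 10.61 in the cKO. Aurka, the Aurora kinase of the centrosomes and spindle poles, had values of 9.67, 9.67 and 9.66 in the floxed controls, 10.00, 9.85 and 9.83 in the Cre controls and 10.40, 10.23 and 10.20 in the cKO. Both kinases were fully separated between the genotypes, and Aurka varied least of the members among the floxed controls (SD 0.0069). Aurka had the largest log2 fold change of all members against the Cre control, 0.39 (SE 0.063, adjusted p = 0.0105), and that of Plk1 was 0.35 (SE 0.054, adjusted p = 0.00814). Cdc25c and Cdc25b code for phosphatases that switch on Cdk1. Cdc25c exceeded the floxed control by 0.48 and the Cre control by 0.31, and both comparisons passed. For Cdc25b these values were 0.27 (adjusted p = 0.0237) and 0.18 (adjusted p = 0.17), and the difference between the phosphatases was not tested.

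**Figure D3:**
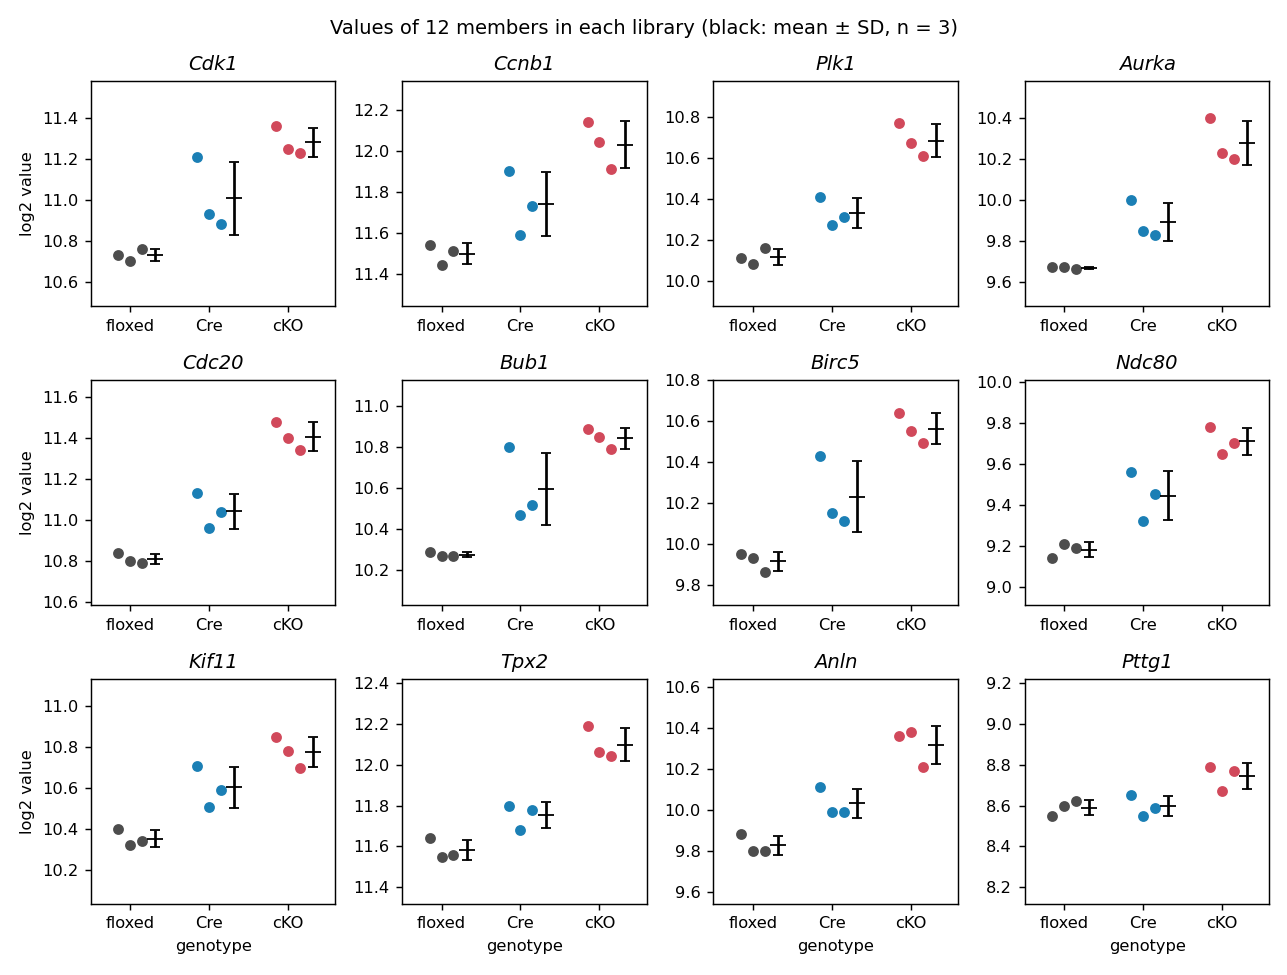
Log2 value (y axis, of the same span in each panel) of 12 members in each of the 9 libraries, by genotype (x axis), with coloured points for libraries and a black bar for the mean ± SD (n = 3). In the 12 panels the cKO points lie above the floxed points, and in Bub1 and Kif11 the highest Cre control point reaches into the cKO range.

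Among the 8 genes of the spindle checkpoint and of anaphase onset, the median log2 fold change over the floxed control was 0.44, with all 8 called, and that over the Cre control was 0.24, with 4 called. Cdc20, which activates the APC/C once the checkpoint is satisfied, had values of 10.84, 10.80 and 10.79 in the floxed controls, 11.13, 10.96 and 11.04 in the Cre controls and 11.48, 11.40 and 11.34 in the cKO. It had the lowest adjusted p of the members in each comparison, 0.000163 against the floxed control (log2 fold change 0.60, SE 0.051), 0.0065 against the Cre control (log2 fold change 0.36, SE 0.051) and 0.144 between the controls, by limma. Ube2c, the ubiquitin-conjugating enzyme of the APC/C, had values of 10.80, 10.75 and 10.75 in the floxed controls, 11.23, 10.97 and 10.98 in the Cre controls and 11.52, 11.39 and 11.31 in the cKO. With log2 fold changes of 0.64 (adjusted p = 0.000471) and 0.35 (adjusted p = 0.0229) it passed against both controls, and its libraries did not overlap. Bub1, a checkpoint kinase of the kinetochore, had values of 10.29, 10.27 and 10.27 in the floxed controls, 10.80, 10.47 and 10.52 in the Cre controls and 10.89, 10.85 and 10.79 in the cKO. Cre control replicate 1 lay above the lowest cKO library, and Bub1 was called against the floxed control (0.56, adjusted p = 0.0008) and not against the Cre control (0.24, adjusted p = 0.0686). Of the other checkpoint genes, Ttk (0.41 and 0.26) and Bub1b (0.40 and 0.22) passed against both controls, and Mad2l1 (0.47 and 0.23) passed only the comparison with the floxed control.

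Pttg1 (securin) and Espl1 (separase) form the pair that releases sister chromatids at anaphase, and they had the smallest log2 fold changes of the members against the floxed control. Pttg1 had values of 8.55, 8.60 and 8.62 in the floxed controls, 8.65, 8.55 and 8.59 in the Cre controls and 8.79, 8.67 and 8.77 in the cKO. Espl1 had values of 9.43, 9.42 and 9.30 in the floxed controls, 9.42, 9.40 and 9.40 in the Cre controls and 9.81, 9.53 and 9.60 in the cKO. In both genes the controls overlapped each other and the cKO libraries lay above all 6 of them. Pttg1 was higher by 0.15 (SE 0.053, adjusted p = 0.0437) and Espl1 by 0.26 (SE 0.071, adjusted p = 0.016) against the floxed control by limma. Neither passed against the Cre control, where Pttg1 stood at 0.14 (adjusted p = 0.112) and Espl1 at 0.24 (adjusted p = 0.0607). Their means in the Cre control lay 7.57% and 8.93% of the way from the floxed control to the cKO, the lowest of the 49.

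The 7 kinetochore and centromere genes were all called against the floxed control, with a median log2 fold change of 0.53, but 1 of the 7 was called against the Cre control (median 0.22). That gene was Ndc80, which gives its name to the complex that grips microtubule ends, with values of 9.14, 9.21 and 9.19 in the floxed controls, 9.56, 9.32 and 9.45 in the Cre controls and 9.78, 9.65 and 9.70 in the cKO. Its libraries did not overlap, and its log2 fold changes were 0.53 (SE 0.065, adjusted p = 0.000587) and 0.26 (SE 0.065, adjusted p = 0.0359). Nuf2, Spc24 and Spc25, the other subunits of the complex, were higher by 0.47, 0.54 and 0.54 against the floxed control. Their differences from the Cre control stood at 0.22, 0.18 and 0.24 without passing. Cenpf, a large protein of the outer kinetochore, had values of 11.90, 11.79 and 11.84 in the floxed controls, 12.16, 11.94 and 12.04 in the Cre controls and 12.30, 12.24 and 12.03 in the cKO. The third cKO library fell within the range of the Cre controls, and the log2 fold change against them was 0.14 (95% confidence interval -0.026 to 0.31, adjusted p = 0.237). Cenpa, the histone variant that marks the centromere, was higher by 0.60 against the floxed control and stood at 0.25 (adjusted p = 0.139) against the Cre control. Cenpe, the kinetochore kinesin, stood at 0.34 and 0.17, and passed against the floxed control alone.

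The chromosomal passenger complex, which corrects faulty attachments and then moves to the cell midzone, had the largest median log2 fold change of the 8 roles, with 0.58 for its 4 subunits over the floxed control and 0.31 over the Cre control. Birc5 (survivin) showed the largest change of the 49 against the floxed control, with values of 9.95, 9.93 and 9.86 in the floxed controls, 10.43, 10.15 and 10.11 in the Cre controls and 10.64, 10.55 and 10.49 in the cKO. Its libraries did not overlap between the genotypes, and its log2 fold changes were 0.64 (SE 0.078, adjusted p = 0.00058) and 0.33 (SE 0.078, adjusted p = 0.0332). Aurkb, the kinase of the complex, had values of 9.64, 9.47 and 9.59 in the floxed controls, 10.10, 9.86 and 9.79 in the Cre controls and 10.33, 10.13 and 10.02 in the cKO. Cre control replicate 1 lay above the lowest cKO library, and Aurkb passed against the floxed control (0.59, adjusted p = 0.00165) and not against the Cre control (0.25, adjusted p = 0.123). Incenp, the scaffold, was higher by 0.42 and 0.28, and Cdca8 (borealin) by 0.57 and 0.34, and both passed against both controls.

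Of the 8 mitotic kinesins, all were called against the floxed control (median log2 fold change 0.45) and 4 against the Cre control (median 0.26). Kif11, the motor that pushes the spindle poles apart, had values of 10.40, 10.32 and 10.34 in the floxed controls, 10.71, 10.51 and 10.59 in the Cre controls and 10.85, 10.78 and 10.70 in the cKO. Kif4, which acts on chromosome arms and the central spindle, had values of 10.27, 10.17 and 10.16 in the floxed controls, 10.40, 10.32 and 10.39 in the Cre controls and 10.80, 10.58 and 10.55 in the cKO. Kif20a, which brings the passenger complex to the midzone, had values of 10.61, 10.55 and 10.53 in the floxed controls, 10.78, 10.76 and 10.77 in the Cre controls and 11.23, 11.13 and 11.02 in the cKO. Kif4 and Kif20a were separated between all genotypes, and in Kif11 the highest Cre control reached the lowest cKO library. Kif20a was among the members with the lowest adjusted p, 0.000215 against the floxed control (log2 fold change 0.57) and 0.00699 against the Cre control (0.36). Kif4 also passed against both (0.44 and 0.28), and Kif11 passed against the floxed control (0.42, adjusted p = 0.00093) and not against the Cre control (0.17, adjusted p = 0.0914).

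Kif18a, which damps the movements of chromosomes at the spindle equator, had values of 9.42, 9.38 and 9.49 in the floxed controls, 9.98, 9.47 and 9.59 in the Cre controls and 9.89, 9.81 and 9.74 in the cKO. Cre control replicate 1 was its highest library of all 9. The cKO exceeded the floxed control by 0.38 (adjusted p = 0.0217), and its difference from the Cre control, 0.13 (95% confidence interval -0.11 to 0.38, adjusted p = 0.448), was the smallest of the members. The chromosome motor Kif22 (0.52 and 0.34) and the microtubule depolymerase Kif2c (0.49 and 0.25) passed against both controls. Kif23 (0.46 and 0.23) and Kif20b (0.35 and 0.27), motors of the late spindle, passed against the floxed control alone.

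**Figure D4:**
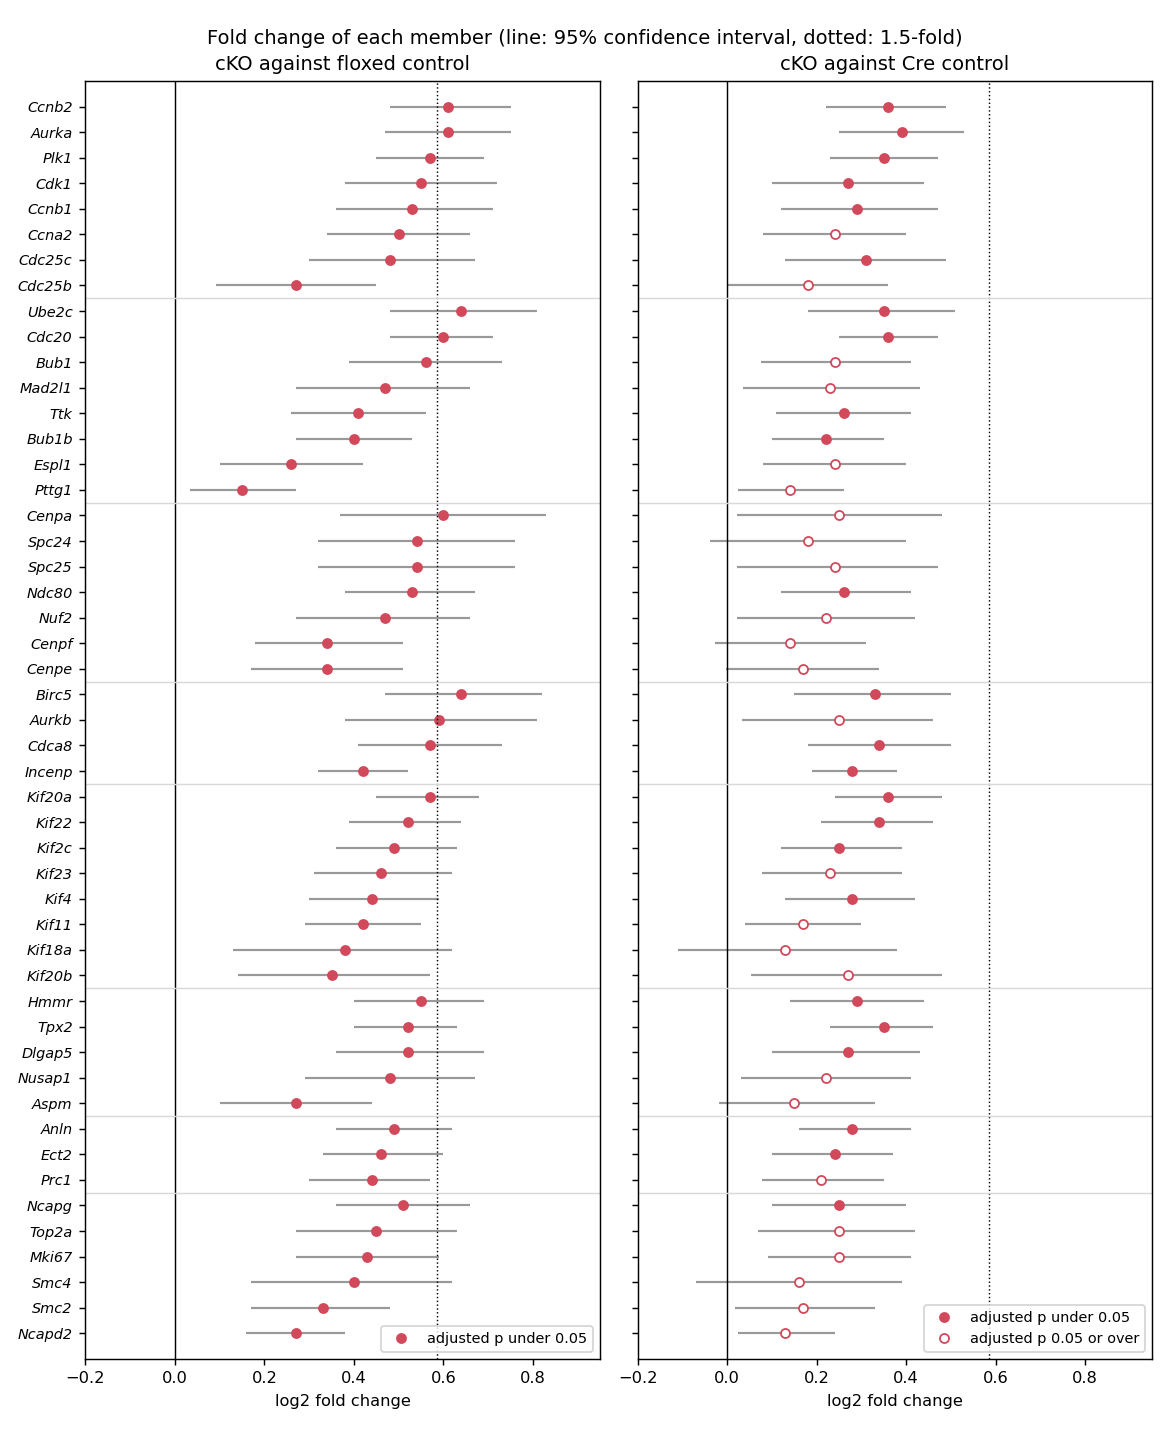
Log2 fold change (x axis) of each member (y axis, grouped by role) in cKO against the floxed control (left) and against the Cre control (right), with lines for the 95% confidence interval of the limma fit, filled points for an adjusted p under 0.05 and a dotted line at 1.5-fold. All 49 points are filled on the left and 24 on the right, and every point lies to the right of 0.

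The 5 genes of spindle assembly and the spindle poles had a median log2 fold change of 0.52 over the floxed control, all called, and of 0.27 over the Cre control, with 3 called. Tpx2, which activates Aurora A and starts microtubules near chromatin, had values of 11.64, 11.55 and 11.56 in the floxed controls, 11.80, 11.68 and 11.78 in the Cre controls and 12.19, 12.06 and 12.04 in the cKO. Aspm, a spindle pole protein needed for symmetric divisions of neural progenitors, had values of 11.23, 10.85 and 10.99 in the floxed controls, 11.18, 11.12 and 11.11 in the Cre controls and 11.31, 11.27 and 11.29 in the cKO. Tpx2 was separated between all genotypes, with log2 fold changes of 0.52 (SE 0.052, adjusted p = 0.000261) and 0.35 (SE 0.052, adjusted p = 0.0077). The floxed controls of Aspm were spread more widely than those of any other member (SD 0.19), and one of them lay above all 3 Cre controls. Aspm was higher in the cKO by 0.27 (adjusted p = 0.0214) against the floxed control and stood at 0.15 (adjusted p = 0.216) against the Cre control. Hmmr (0.55 and 0.29) and Dlgap5 (0.52 and 0.27), proteins that bind and stabilize spindle microtubules, passed against both controls. Nusap1 (0.48 and 0.22), which bundles spindle microtubules, passed against the floxed control.

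Of the 3 cytokinesis genes, Prc1, which bundles the microtubules of the central spindle, had values of 11.35, 11.21 and 11.25 in the floxed controls, 11.59, 11.40 and 11.49 in the Cre controls and 11.78, 11.72 and 11.62 in the cKO. Anln (anillin), a scaffold of the contractile ring, had values of 9.88, 9.80 and 9.80 in the floxed controls, 10.11, 9.99 and 9.99 in the Cre controls and 10.36, 10.38 and 10.21 in the cKO. Ect2, which switches on RhoA at the cleavage plane, had values of 10.64, 10.52 and 10.58 in the floxed controls, 10.86, 10.74 and 10.83 in the Cre controls and 11.13, 11.08 and 10.92 in the cKO. None of the 3 overlapped between the genotypes, and all were called against the floxed control, with log2 fold changes of 0.44, 0.49 and 0.46. Against the Cre control Anln (0.28, adjusted p = 0.0195) and Ect2 (0.24, adjusted p = 0.0391) passed, and Prc1 (0.21, adjusted p = 0.0535) did not.

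The 6 genes of chromosome structure had the smallest median log2 fold change of the 8 roles, 0.41 against the floxed control, where all 6 were called, and 0.21 against the Cre control, where Ncapg alone was (0.25, adjusted p = 0.0433). Top2a, the topoisomerase that untangles sister chromatids, had values of 13.09, 12.95 and 12.95 in the floxed controls, 13.28, 13.09 and 13.24 in the Cre controls and 13.61, 13.43 and 13.30 in the cKO. Mki67, which codes for the proliferation antigen Ki-67 on the surface of mitotic chromosomes, had values of 12.99, 12.86 and 12.87 in the floxed controls, 13.03, 13.08 and 13.16 in the Cre controls and 13.48, 13.35 and 13.19 in the cKO. In both genes every cKO library lay above every control. Top2a was higher by 0.45 (SE 0.08, adjusted p = 0.00235) against the floxed control and stood at 0.25 (adjusted p = 0.0765) against the Cre control. For Mki67 these values were 0.43 (SE 0.071, adjusted p = 0.00182) and 0.25 (adjusted p = 0.0542).

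Smc2, a core subunit of the condensins, which compact chromosomes, had values of 11.66, 11.62 and 11.65 in the floxed controls, 11.93, 11.67 and 11.79 in the Cre controls and 12.09, 11.95 and 11.87 in the cKO. Smc4, its partner, had values of 12.30, 12.08 and 12.19 in the floxed controls, 12.69, 12.25 and 12.34 in the Cre controls and 12.68, 12.56 and 12.52 in the cKO. Ncapd2, a subunit of condensin I, had values of 12.08, 11.99 and 12.01 in the floxed controls, 12.15, 12.17 and 12.17 in the Cre controls and 12.40, 12.27 and 12.21 in the cKO. Smc2 and Smc4 overlapped between the Cre control and the cKO, and in Smc4 Cre control replicate 1 was the highest of the 9 libraries, whereas Ncapd2 was separated by small steps. The log2 fold changes against the floxed control were 0.33, 0.40 and 0.27, all called. Against the Cre control they were 0.17 (adjusted p = 0.136), 0.16 (adjusted p = 0.329) and 0.13 (adjusted p = 0.106).

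The members moved together from library to library within a genotype. Cre control replicate 1 was the highest of the 3 Cre controls in 46 of 49 members, where 36.7% of all genes had it highest, and cKO replicate 1 was the highest cKO library in 46 members, where 33.0% of all genes had it highest. As a median over members, Cre control replicates 1, 2 and 3 lay 0.32, 0.13 and 0.19 above the mean of the floxed controls on the log2 scale. The cKO replicates 1, 2 and 3 lay 0.57, 0.46 and 0.42 above it. In 15 members Cre control replicate 1 reached or passed the lowest cKO library, and in 1 member another Cre control did. In 34 members and 17.8% of all genes, the 3 cKO libraries lay above the 3 Cre controls with no overlap. Without Cre control replicate 1, 42 members were called against the Cre control in place of 24, and without Cre control replicate 2, Cre control replicate 3 or cKO replicate 1, 8 were called each time, and 9 without cKO replicate 2. Called in every fit that left out 1 of the 6 libraries compared were Ccnb2, Plk1, Aurka, Cdc20, Incenp, Kif20a, Kif22 and Tpx2 against the Cre control. Against the floxed control 42 members were called in every such fit, and the exceptions were Pttg1, Kif18a, Aspm, Cdc25b, Kif20b, Espl1 and Smc4.

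Other genes of mitosis were taken from a list of 71 that peak in the same phase or act in the same complexes. Like the members, this list and the next were chosen with earlier results of these data known. Of the 71, 56 were called higher and 0 lower in the cKO against the floxed control (median log2 fold change 0.39), and 18 were higher against the Cre control (median 0.20). Over all genes, 19.5% and 4.86% were called higher in these comparisons. The largest changes against the floxed control were in Gtse1 (0.62, adjusted p = 0.000335), a microtubule-binding protein of G2 and mitosis, Tacc3 (0.61, adjusted p = 0.000587), a substrate of Aurora A on the spindle, and Cks2 (0.58, adjusted p = 0.00177), a small partner of Cdk1. The smallest were in the kinetochore genes Zwint (-0.10, adjusted p = 0.104) and Cenpc1 (-0.036, adjusted p = 0.739) and in the augmin subunit gene Haus8 (-0.015, adjusted p = 0.836), and none of the 3 passed.

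A further 37 genes code for machinery that mitosis uses but that cells outside mitosis also express, namely APC/C subunits, cohesin and its regulators, and microtubule and centrosome proteins. Of these, 5 were called higher and 2 lower against the floxed control, with a median log2 fold change of 0.057, and 1 was called higher against the Cre control. The shares of all genes called higher were 19.5% and 4.86%, and 2642 of the 14029 genes were called lower against the floxed control. The highest were Nedd1 (0.42, adjusted p = 0.00248) and Tubg1 (0.18, adjusted p = 0.01), which act in microtubule nucleation, and Anapc10 (0.21, adjusted p = 0.0319), a subunit of the APC/C. The lowest were Clasp2 (-0.39, adjusted p = 0.00343), Clasp1 (-0.22, adjusted p = 0.0835) and Dync1h1 (-0.17, adjusted p = 0.07), which bind or move along microtubules in neurons as well. TTTGAA was found in 29 of 69 promoters of the 71 genes and in 21.2% of the promoters of the 37. Among the members themselves, the median log2 fold change against the floxed control was 0.48 for the 28 with a CHR near the start and 0.47 for the 12 without one. Against the Cre control, these medians were 0.26 and 0.22. The genes outside the members still include genes of the lists of 71 and 37. Outside the members, 26.5% of the 601 genes with a CHR near the start were called higher against the floxed control. Of the 10382 without one, 18.8% were. These differences were not tested.

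Markers of cell types in the tissue also differed between the genotypes. Of 10 neuron markers, 10 were called lower in the cKO against the floxed control (median log2 fold change -0.46) and 4 against the Cre control (median -0.26). Over all 14029 genes tested, 2642 were called lower in the first comparison and 681 in the second. Of 10 markers of neural progenitors, 6 were higher against the floxed control (median of the 10, 0.27), from 0.26 (Prom1) to 0.50 (Nes), with Sox2, Vim, Hes1 and Hes5 between them. The other 4 did not pass, with Notch1 at 0.04 (adjusted p = 0.755), Sox9 at 0.02 (adjusted p = 0.829), Slc1a3 at -0.12 (adjusted p = 0.122) and Fabp7 at -0.16 (adjusted p = 0.212). Of the 7 midbrain markers, Pax2 (log2 fold change -0.63, adjusted p = 0.0146), Pax7 (-0.48, adjusted p = 0.00595) and Pax3 (-0.37, adjusted p = 0.0128), transcription factors of the dorsal neural tube and the isthmus, were lower in the cKO against the floxed control. Otx2, En1, En2 and Lmx1b did not pass, with values from -0.0098 to 0.17, and limma called 0 of the 7 against the Cre control (median -0.11), where Pax3 and Pax7 were lower at an unadjusted p under 0.05. The neuron markers were lowest among the Cre controls in replicate 1, with a median deviation from the gene means of -0.17, and lowest among the cKO in replicate 1, at -0.35, the libraries in which the members were highest. The log2 of the summed level of the neuron markers was 17.12 to 17.22 in the floxed control, 16.80 to 17.11 in the Cre control and 16.62 to 16.79 in the cKO. That of the progenitor markers was 16.46 to 16.52, 16.47 to 16.57 and 16.65 to 16.71. None of these markers was at 0, and the part of the cell composition in the values of the members was not tested.

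Erythroid cells and mesenchyme hold dividing cells of their own, and their markers moved as well. Of 10 erythroid markers, 7 were called higher in the cKO against the floxed control (median 0.78), none was at 0, and the log2 of their summed level was 17.22 to 17.99 in the floxed control, 17.49 to 17.69 in the Cre control and 17.87 to 18.82 in the cKO. The lowest of these cKO values, 17.87, belonged to cKO replicate 2 and lay within the range of the floxed controls. In that library, the members lay a median of 0.46 above the mean of the floxed controls and 0.23 above that of the Cre controls. Its summed level was 13.04 for endothelial markers, the highest of the 9 libraries, and 15.99 for mesenchyme markers. It is 1 library, and the part of erythroid cells in the values of the members was not tested. With the erythroid genes as a covariate, the median log2 fold changes of the members were 0.50 over the floxed control and 0.26 over the Cre control. All 49 members had positive values in both comparisons. In that fit limma called 27 in the first comparison and 0 in the second, where 26 had an unadjusted p under 0.05. The erythroid markers themselves differed with genotype, by medians of 0.78 over the floxed control and 0.87 over the Cre control. With 3 libraries per genotype, this fit cannot separate them from genotype.

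Of 9 markers of mesenchyme and meninges, 7 were higher against the floxed control (median 0.69), none was at 0, and the log2 of their summed level was 14.87 to 15.72, 15.21 to 15.93 and 15.96 to 16.02 in the 3 genotypes. Floxed control replicate 2 had the highest summed level of the floxed controls, at 15.72. The median deviations of the members in floxed control replicates 1, 2 and 3 were -0.20, -0.27 and -0.24. These lie close together beside a pooled SD of such library medians of 0.0843. The part of mesenchyme in the values of the members was not tested. With the mesenchyme genes as a covariate, an alternative chosen after seeing the data, 44 members were called in the first comparison and 16 in the second. The mesenchyme markers also differed with genotype, so that fit cannot separate them from genotype either. Of 8 endothelial markers 4 were called higher (median 0.26; log2 of the summed level 12.54 to 12.91, 12.66 to 13.01 and 12.94 to 13.04), and of 8 microglia markers 0 were (median 0.082), with 2 at an unadjusted p under 0.05.

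**Figure D5:**
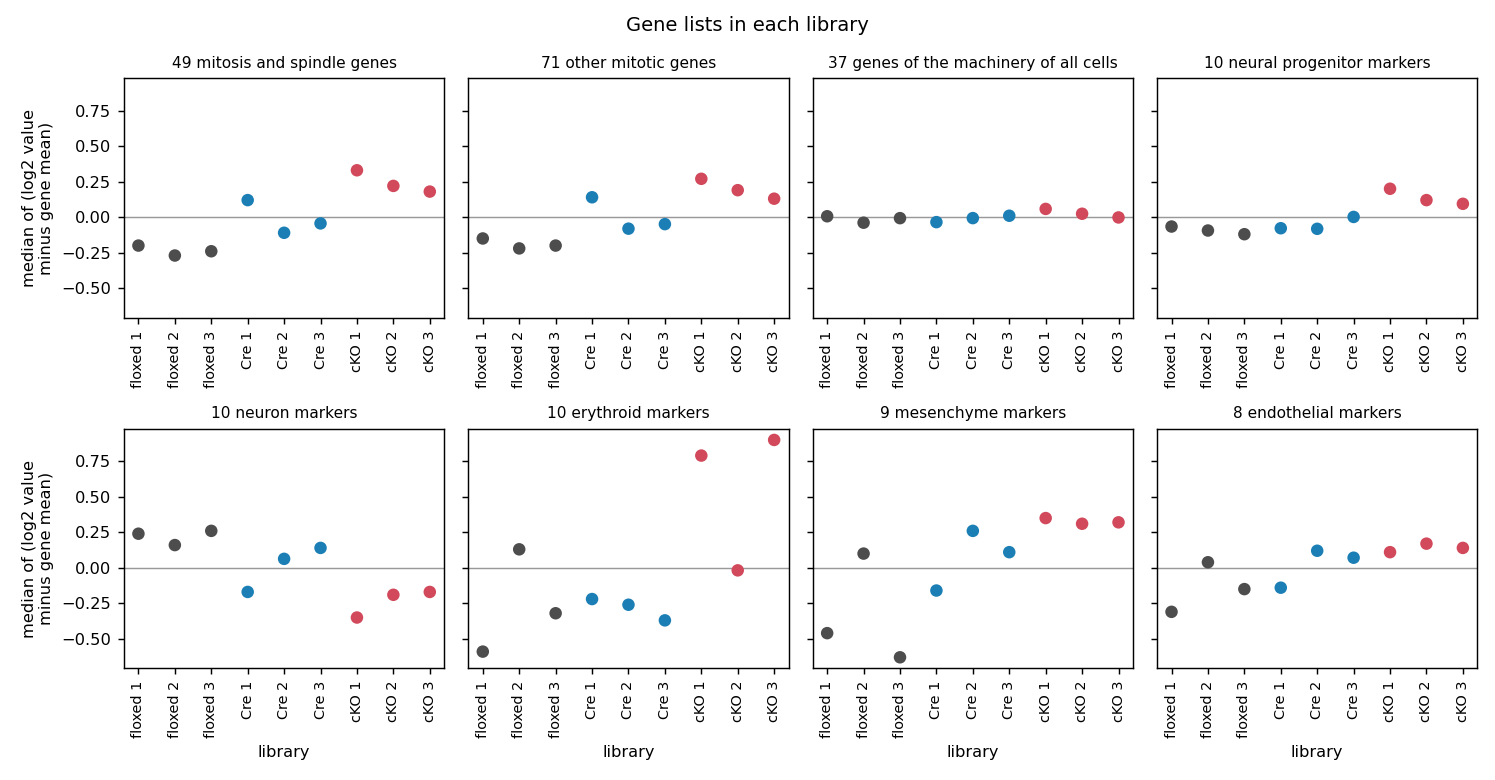
Median over each gene list of the log2 value minus the gene's mean (y axis) in each of the 9 libraries (x axis, grey for the floxed control, blue for the Cre control, red for the cKO). The 49 members and the 71 other mitotic genes rise from the floxed control to the cKO, the 37 genes of the general machinery stay between -0.039 and 0.058, neuron markers run the other way, and the erythroid markers of cKO replicate 2 lie near 0.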

How the data were processed

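RNA of midbrain tissue was compared between 3 genotypes of 3 libraries each, grouped by the labels. The paper's text and the submitters' processing notes name poly-A sequencing, FastQC 0.10.1, kallisto 0.46.1, DESeq2 and mm10. The table deposited by the authors holds log2 values that had been put on a common scale and drawn together at low expression. The unit was read from the values, since the transformation is not given in the sources used here. Such shrinkage compresses the fold changes of weakly expressed genes. Of 27360 rows, 21596 carry a gene name, and after 118 repeated rows were dropped, 14029 genes remained that reached 1 cpm, taken from the linear values, in 3 libraries or more. A limma model (limma 3.58.1 under R 4.3.3) gave each genotype its own mean over all 9 libraries, with eBayes moderation along a trend, two-sided, with Benjamini-Hochberg adjustment over all genes tested. The fit was tested on simulated data. The labels do not say how the fetuses fell into litters, and the p-values measure the spread between these libraries. Transcript lengths and positions came from GENCODE vM21.

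The members and gene lists were chosen with earlier results of these data known. Values in every library were given for Mki67, Cdk1, Ccna2, Ccnb1, Ccnb2, Plk1, Aurka, Aurkb, Bub1, Cdc20, Cenpf, Ndc80, Kif11, Kif4, Tpx2, Aspm, Prc1, Anln, Ect2, Top2a, Smc2 and Smc4, and for the 4 members with the largest and the 4 with the smallest fold change against each control. Of each other mitotic list, the 3 largest and 3 smallest against the floxed control were named. All progenitor and midbrain markers were named. The alternatives varied the filter, the libraries fitted, the trend, the scaling, a replicate block and covariates, and left out each library in turn. A mesenchyme covariate and a correction for transcript length and GC content were added after seeing the data.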

Additional observations from a re-analysis of the deposited data

How the results depend on the processing

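All 49 members stayed higher in the cKO than in either control under every alternative run. The count called against the floxed control was 49 and ran from 43 to 48 when 1 library at a time was left out, and it was 27 with the erythroid genes as a covariate. The count against the Cre control was 24 and ran from 8 to 42 without 1 library. It was 8 with only the 6 libraries compared, 0 with the erythroid covariate, 16 with no filter on low values, 16 with libraries centred on their medians and 33 with the replicate block. The count of DEGs against the floxed control was 7, ran from 2 to 12 without 1 library, and was 25 with the mesenchyme genes as a covariate and 2 after the correction for length and GC content. The median log2 fold change against the floxed control was 0.59 with the mesenchyme covariate. The share of all genes called in each alternative is not given, so these counts cannot be set against it.

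Between the controls, no member was called under any alternative, and the cause of the few changes of sign was not tested. Pttg1 was at -0.00078 after quantile normalization, -0.018 after the correction for length and GC content, and -0.015 to 0.035 when 1 library was left out. Espl1 was at -0.0069 with the mesenchyme covariate and -0.017 to 0.046 when 1 library was left out, and Kif20b at -0.028 to 0.22. Once the mean of each genotype was taken out, libraries of the same replicate number correlated between -0.0272 and 0.26, with a median of 0.102. Those of different numbers correlated between -0.282 and 0.161, with a median of -0.0526. Within every genotype, replicate 1 had the highest median deviation of the members (cKO 0.33, Cre control 0.12, floxed control -0.20). The main fit did not pair libraries by number, and an effect shared by libraries of the same number was not tested. The replicate block changed no call against the floxed control and moved 9 members past the threshold against the Cre control. The depth of the libraries is unknown, and 3 fetuses per genotype limit the precision.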
